A study of Mus musculus with 4 samples.

Results

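Mitochondrial ribosomal protein genes, whose symbols start with Mrpl or Mrps, were described across the libraries of wild-type and Asxl1-deficient mouse bone-marrow progenitors. A locus was taken as a member when one of its names was Mrpl or Mrps followed by a number and at most 1 letter, and when its normalised read count was 10 or more in at least 2 libraries. The name pattern matched 76 of 17956 single loci in the table, and all 76 passed the filter on low values, out of 13764 loci that did so. Of the members, 62 carried 1 symbol or spellings of it that differ only in case. The other 14 carried further names in 1 row. For Mrps2 the further name was MRP-S2, a spelling with a hyphen. Its row was counted with the 14 all the same and was left out of the levels per length. Where a row is merged with another gene, its reads cannot be divided between the genes. The choice used names and level only, not the difference between genotypes.

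RNA was sequenced from Lin-Kit+ bone-marrow cells of C57BL/6 mice, the fraction that lacks mature lineage markers and carries the Kit receptor. Libraries were 2 from wild-type mice (WT) and 2 from Asxl1-/- mice (KO), all untreated as far as the labels say. The sources used here give neither the age nor how the Asxl1 allele was made. The ASXL1 protein acts on chromatin, and its gene is mutated in many myeloid cancers. Values below are normalised read counts ± SD with n = 2 libraries per genotype, and fold changes are log2 of KO over WT ± SE on the scale of the normalised read count + 1. Adjusted p-values are from limma, with the Benjamini-Hochberg method over all 13764 loci and a threshold of 0.05. A member is said to have risen or fallen only where it passed that threshold.

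The mitochondrial ribosome translates the few mRNAs that the mitochondrial genome encodes, which specify core subunits of the respiratory chain and of ATP synthase. Its RNAs come from mitochondrial DNA, while every one of its proteins is encoded in the nucleus, made in the cytosol and imported. The large subunit forms peptide bonds and the small subunit reads the mRNA. Many of the proteins have homologs in bacteria, and others were added during the evolution of mitochondria.

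Asxl1 (chromosome 2, 153171874 to 153229743, mm9) was measured at 9742 and 9472 in WT and at 146 and 135 in KO, 1.46% of the WT mean, and fell by 6.09 ± 0.09 (adjusted p = 8.89e-06). Recovered reads numbered 46597871 and 49764454 in WT and 83586916 and 76688583 in KO, so the KO libraries were deeper. Replicate 1 of each genotype carried high reads at the Xist locus (103006 and 89290, against 2123 and 147 in replicate 2), and differences within each replicate number are therefore given for the member set and for its called members. No label says that the libraries came from separate animals, so p-values measure the spread between these libraries. In bulk RNA, fewer cells of a type and less RNA per cell cannot be told apart.

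Of the 76 mitochondrial ribosomal protein loci, 13 fell in KO, all by a small amount, which is to be read against 8.97% of all tested loci called lower, and 1 locus rose, Mrpl48 with Rab6, against 11.9% called higher and 20.9% called in either direction. The median fold change of the members was -0.13, with quartiles of -0.22 and -0.07, while the median of all tested loci was -0.01. The estimate lay below 0 in 68 of 76 members, or 89.5%, and in 50.9% of all tested loci. Without WT replicate 1 or without WT replicate 2, no member passed the limma threshold. All tested loci called lower then made up 1.93% and 1.98%, and those called higher 4.38% and 5.88%. The estimate stayed below 0 in 68 and 67 members in those fits. It changed little in Mrpl15 (-0.24 and -0.25) and more in Mrpl37 (-0.20 and -0.32). With 1 WT library left, the spread came from the KO pair alone. Over the members, the median absolute log2 difference was 0.073 between the KO libraries and 0.054 between the WT libraries. Whether this wider KO spread accounts for the lost calls was not tested. Over the 14 called members and all alternatives, the highest adjusted p of a member ran from 0.0838 for Mrpl42 to 0.253 for Mrpl37.

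At an unadjusted p under 0.05, 26 members were lower and 1 was higher, where 18.3% of all loci were lower and 19.5% higher. Both KO libraries lay below both WT libraries in 53 members, against 33.6% of all tested loci. Both lay above in 5 members, against 32.5%, and the genotypes overlapped in the other 18. Among the 8002 loci within the members' range of mean values, 547 to 12347, the share called lower was 10.1%, so the background was close to that of all loci. The spread of the members was narrow: the SD of their fold changes was 0.12, against 0.60 over all tested loci. Over the 8002 loci in the same range of mean values it was 0.38. The estimates of the members ran from -0.42 to 0.23. The plot of fold changes by locus shows this range.

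**Figure D1:**
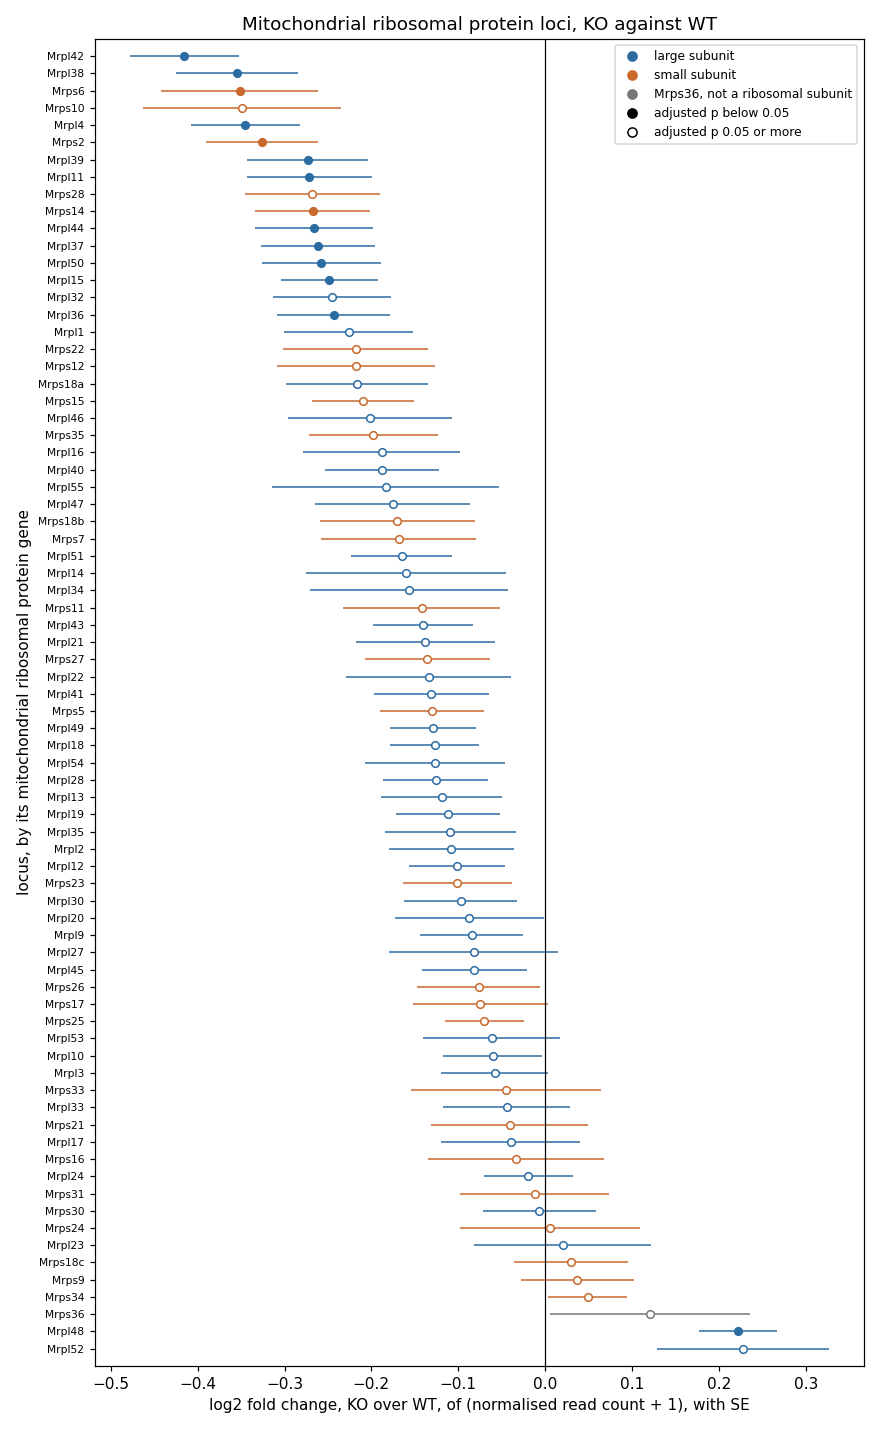
Log2 fold change of KO over WT (horizontal axis, on the scale of the normalised read count + 1, bars are SE) for each of the 76 member loci, ordered by estimate on the vertical axis. Most estimates lie to the left of 0, from -0.42 for Mrpl42 to 0.23 for Mrpl52, and 14 are marked as called.

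Summed over the members, the normalised read counts came to 217482 and 219010 in WT and to 199414 and 204437 in KO. As a share of recovered reads, the members made up a CPM (reads scaled to a common library total) of 3604 and 3608 in WT and of 3148 and 3231 in KO. Both KO libraries lay below both WT libraries on either scale. Scaling changed the size of the shift: the median of the members was -0.18 with upper-quartile scaling and -0.20 with library-total scaling, where the median of all loci moved to -0.06 and -0.07. With those scalings 20 and 22 members were called lower, against 13.8% and 15% of all loci, and 1 and 0 higher, against 10.2% and 9.65%.

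The background moved with the other settings too. Without a filter on low values 7 members were lower, against 5.85% of all loci, and 1 higher, against 8.16%. A filter at 50 gave 15 lower, against 10.6%, and 1 higher, against 13.6%. EdgeR gave 13 lower, against 8.86%, and 1 higher, against 11.8%, and DESeq2 gave 16 lower, against 10.9%, and 1 higher, against 13.9%. Limma-voom gave 10 lower, against 8.38%, and 1 higher, against 10.7%. TMM scaling gave 13 lower and 1 higher, against 9.07% and 11.9%. Pseudocounts of 0.5 and 10 gave the same member counts, against 8.92% and 9.07% lower and 11.8% and 12.1% higher. In each of these settings the share of members called lower was above that of all loci. Without KO replicate 1 there were 10 lower and 1 higher (11.2% and 12.3% of all loci), and without KO replicate 2 there were 9 and 1 (10.6% and 12.5%).

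**Figure D2:**
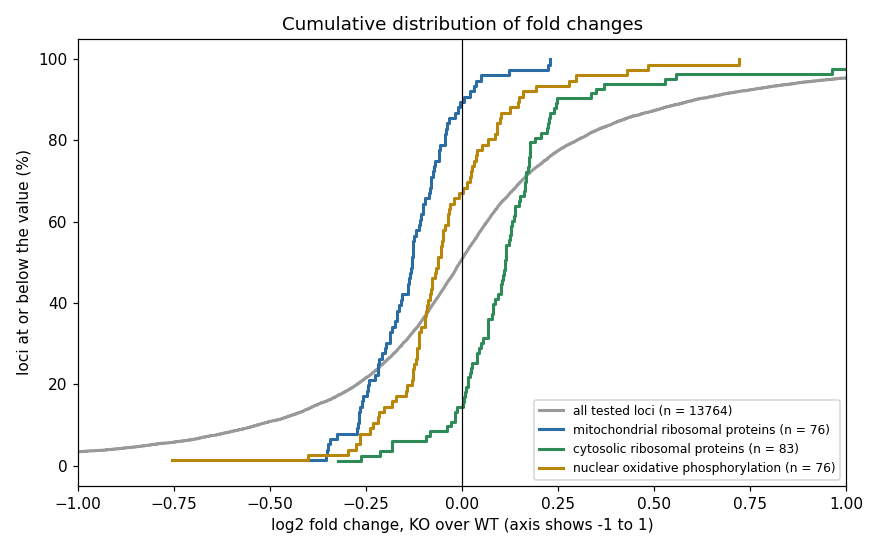
Cumulative share of loci (vertical axis, %) at or below each log2 fold change of KO over WT (horizontal axis, shown from -1 to 1) for the members and the compared sets of loci. The curve of the members is steep and lies left of 0, with 89.5% of its loci below 0, against 50.9% for all tested loci.

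Promoter windows show which of a few short sequences some of the lower members hold near their start sites. Windows of RefSeq on GRCm38.p6, from 250 bases before to 50 bases from the annotated start, were found for 67 of the 76 member genes, 73 windows in all. That build differs from mm9, in which the deposited coordinates are given. The motifs were chosen after the fold changes were seen, as cores of factors known at nuclear genes for mitochondrial proteins, and were searched on both strands. The 4 windows below are of members that fell, and capitals mark the motif found. The stretches of Mrpl42 (chr10:95501904-95501933, minus strand) and Mrpl37 (chr4:107066822-107066851, minus strand) lie just after the start site and hold the YY1 core AAGATGGC. Those of Mrpl36 (chr13:73330859-73331008, plus strand) and Mrpl39 (chr16:84735245-84735394, minus strand) are the 150 bases before the start. The Mrpl36 stretch holds an E-box, CACGTG, and the YY1 core read on the opposite strand, and the Mrpl39 stretch holds the core of the NRF1 motif, a palindrome that its capitals spell out.
Mrpl42: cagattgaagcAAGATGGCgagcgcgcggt
Mrpl37: ctgcacgggcaAAGATGGCggcgtccaggt
Mrpl36: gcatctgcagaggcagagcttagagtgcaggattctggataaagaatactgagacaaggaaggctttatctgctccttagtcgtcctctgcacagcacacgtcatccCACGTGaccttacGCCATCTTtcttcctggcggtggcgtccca
Mrpl39: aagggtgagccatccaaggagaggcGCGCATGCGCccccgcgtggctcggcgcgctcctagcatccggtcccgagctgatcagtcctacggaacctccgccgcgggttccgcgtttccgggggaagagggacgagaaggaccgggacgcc

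The YY1 core stood in 12 of the 73 member windows, or 16.4%, against 2.75% of all 32851 windows and 3.95% of the 12768 windows of tested genes. In the member windows 8 of the YY1 matches lay at or after the start site, and thus in the transcribed part. The ETS core CCGGAAGT, bound by GABP among other factors, was also in 12 member windows, against 3.89% of all windows and 7.05% of those of tested genes. The NRF1 core was in 3 member windows, or 4.11%, against 0.971% and 1.90%. The E-box was in 7, or 9.59%, against 7.15% and 9.59%. The windows of Mrpl2 among them overlap and hold the same site, and by gene the E-box was found for 5 of 67 members. Shares of all and of tested genes are counted by window. At least 1 of these 4 motifs was in the windows of 4 of 10 members that fell and of 22 of 56 members that were not called, and in a window of Mrpl48, whose locus rose. The ETS core was found for 0 of the 10 members that fell, for 11 of the 56 not called and for Mrpl48. The YY1 core was found for 3 of the 11 called members with a window, Mrpl48 included, and for 9 of the 56 not called. For the NRF1 core these counts were 1 and 2, and for the E-box 2 and 3. Members without a motif are not printed above, nor are members that were not called. A match is a stretch of letters and not a measured binding site.

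The large subunit supplied 49 of the members. Of these, 10 fell and 1 rose, against 8.97% of all tested loci called lower and 11.9% called higher. The estimate lay below 0 in 46 of them, against 50.9% of all tested loci, and their median fold change was -0.13. Its 20 mitochondrion-specific proteins gave 6 of the lower calls with a median of -0.17, and its 29 proteins with bacterial homologs gave 4 with a median of -0.12. The difference between these classes was not tested.

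Mrpl42 had the lowest estimate of all members. It encodes a mitochondrion-specific protein of the large subunit and lies on chromosome 10 (94943439 to 94964572, mm9). The WT libraries gave normalised read counts of 3158 and 3027 and the KO libraries 2328 and 2309, so the genotypes did not overlap. It fell from 3092 ± 92.2 to 2318 ± 13.3, 75% of the WT mean, with a log2 fold change of -0.42 ± 0.06 (adjusted p = 0.00932). Within replicate number 1 the difference was -0.44, and within number 2 it was -0.39.

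Mrpl38 and Mrpl4 followed among the large-subunit members. Mrpl38 (chromosome 11, 115993130 to 116000182) encodes a mitochondrion-specific protein, and its values were 2296 and 2326 in WT and 1755 and 1862 in KO. It fell to 78.2% of the WT mean (-0.35 ± 0.07, adjusted p = 0.0212). Mrpl4 (chromosome 9, 20807180 to 20813281) encodes the homolog of bacterial L4, which lines the tunnel through which the nascent chain leaves. Its values were 2796 and 2777 in WT and 2158 and 2230 in KO, a change of -0.34 ± 0.06 (adjusted p = 0.0168). In both genes the libraries of the genotypes were clearly apart, by at least as much as the spread within either genotype.

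Mrpl39 (chromosome 16, 84718525 to 84735426), another mitochondrion-specific protein gene, was measured at 2434 and 2534 in WT and at 2116 and 1994 in KO. It fell by 0.27 ± 0.07 on the log2 scale (adjusted p = 0.0427). Mrpl44 (chromosome 1, 79772592 to 79778020) encodes a mitochondrion-specific protein with a fold related to RNase III. Its values were 2055 and 2051 in WT and 1721 and 1693 in KO, a change of -0.27 ± 0.07 (adjusted p = 0.0424). Mrpl37 (chromosome 4, 106728478 to 106739471) was at 4099 and 3770 in WT and at 3315 and 3242 in KO, a change of -0.26 ± 0.07 (adjusted p = 0.0403). The Mrpl37 call was lost with edgeR, and those of Mrpl39 and Mrpl44 were lost when no filter on low values was used. Mrpl50 (chromosome 4, 49525468 to 49533955) was at 2835 and 2865 in WT and at 2296 and 2475 in KO, a change of -0.26 ± 0.07 (adjusted p = 0.0466). Mrpl37 and Mrpl50 also encode mitochondrion-specific proteins, and in all 4 genes both KO libraries lay below both WT libraries. Without KO replicate 2 the adjusted p was 0.0751 for Mrpl39, 0.0638 for Mrpl44 and 0.0604 for Mrpl37, and without KO replicate 1 it was 0.0858 for Mrpl50.

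Among the bacterial homologs of the large subunit, Mrpl11 (chromosome 19, 4962305 to 4966995) encodes the protein at the base of the stalk where translation factors act. Its values were 1869 and 1883 in WT and 1584 and 1524 in KO, a change of -0.27 ± 0.07 (adjusted p = 0.0466). Mrpl15 (chromosome 1, 4763278 to 4775807) was at 3778 and 3752 in WT and at 3164 and 3173 in KO, a change of -0.25 ± 0.06 (adjusted p = 0.0292). The WT pair and the KO pair of Mrpl15 each differed by far less than the genotypes did. Mrpl36 (chromosome 13, 73468456 to 73469626), which encodes a very small protein, fell by 0.24 ± 0.07 (adjusted p = 0.048), with 2316 and 2361 in WT against 1963 and 1987 in KO. The calls of Mrpl11, Mrpl36 and Mrpl50 were lost with limma-voom and when no filter on low values was used. Mrpl11 also did not pass without KO replicate 2 (adjusted p = 0.079), and Mrpl36 did not pass without KO replicate 1 or without KO replicate 2 (adjusted p = 0.0721 and 0.0579).

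The stalk protein gene Mrpl12, which lies outside the rule for named genes and was chosen after its values were seen, was at 3843 and 3932 in WT and at 3620 and 3624 in KO. Its estimate of -0.10 ± 0.06 did not pass (adjusted p = 0.233), although the libraries did not overlap. Mrpl32 (chromosome 13, 14702567 to 14705304), whose protein is made from a precursor cut in the matrix by the m-AAA protease, was just beyond the threshold. Its values were 2573 and 2687 in WT and 2163 and 2275 in KO (-0.25 ± 0.07, adjusted p = 0.0523).

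The small subunit supplied 26 members, of which 3 fell, 0 rose and 22 had an estimate below 0. Of all tested loci 8.97% were called lower and 11.9% higher, so the share that fell was close to that of all loci. At an unadjusted p under 0.05, 8 of these members were lower and 0 higher by limma, against 18.3% and 19.5% of all loci. EdgeR gave 3 lower and 0 higher calls, against 8.86% and 11.8%, and DESeq2 gave 5 and 0, against 10.9% and 13.9%. The median was -0.13, as in the large subunit. All 3 lower calls were bacterial homologs, 16 members with a median of -0.16. Of the 10 mitochondrion-specific members of the small subunit 0 passed in either direction by limma, edgeR or DESeq2, with 2 lower and 0 higher at an unadjusted p under 0.05 in limma and a median of -0.09.

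Mrps2 (chromosome 2, 28323480 to 28326697), the homolog of bacterial S2, was at 3284 and 3106 in WT and at 2585 and 2513 in KO. It fell to 79.8% of the WT mean (-0.33 ± 0.06, adjusted p = 0.021). Mrps14 (chromosome 1, 162125390 to 162131317), a protein of the head of the small subunit, was at 3255 and 3264 in WT and at 2813 and 2606 in KO, a change of -0.27 ± 0.07 (adjusted p = 0.0386). In both genes the lower WT library lay above the higher KO library. The locus of Mrps6 (chromosome 16, 92058566 to 92112472) is merged with Slc5a3, a myo-inositol transporter gene. Its values were 1313 and 1409 in WT and 1028 and 1105 in KO, and it fell by 0.35 ± 0.09 (adjusted p = 0.0428). Which of the 2 genes carried the lower reads cannot be told apart. The Mrps6 call was lost when no filter on low values was used. Without KO replicate 1 this locus did not pass (adjusted p = 0.0779), nor did Mrps14 without KO replicate 2 (adjusted p = 0.0667). The 4 members on chromosome 2, which carries Asxl1, had a median of -0.13, equal to that of the set, and 1 of them, Mrps2, fell.

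**Figure D3:**
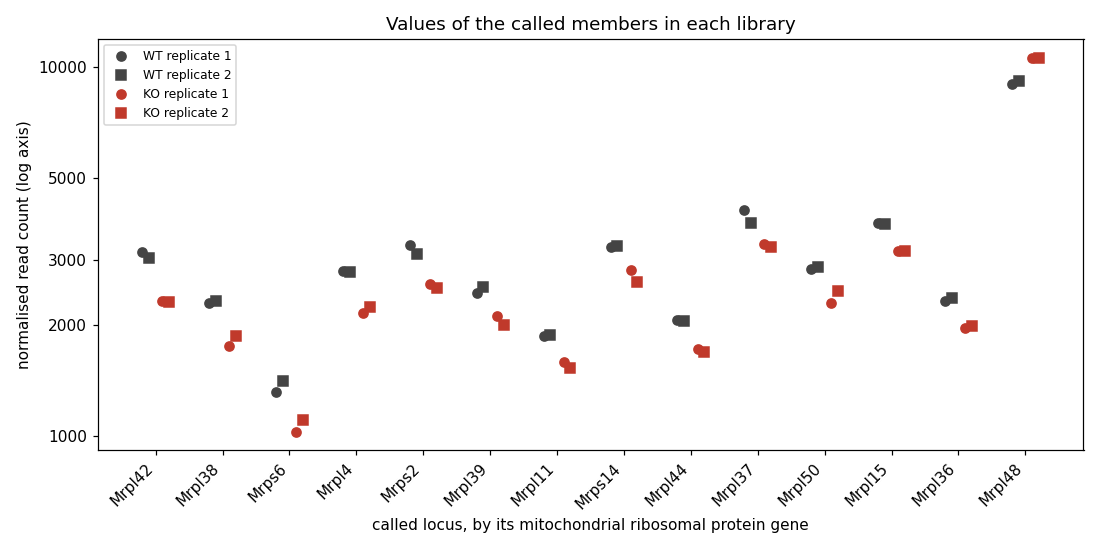
Normalised read count (vertical axis, log scale) of the 14 called members in each of the 4 libraries, 1 point per library, with WT and KO marked apart. Both KO points lie below both WT points in the 13 lower loci, and Mrpl48 with Rab6 shows the opposite order, from 8975 and 9140 in WT to 10543 and 10586 in KO.

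Some small-subunit members had large estimates and did not pass. Mrps10 (chromosome 17, 47505835 to 47515628) was at 1706 and 1396 in WT and at 1238 and 1185 in KO (-0.35 ± 0.11, adjusted p = 0.0794). The WT libraries of Mrps10 stood apart from each other, and the difference was -0.46 within replicate number 1 and -0.24 within number 2. Mrps28 (chromosome 3, 8802145 to 8923857) was at 1609 and 1687 in WT and at 1391 and 1345 in KO (-0.27 ± 0.08, adjusted p = 0.0578).

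The Mrps18 family shows how related proteins can differ in value. Mice have 3 genes related to bacterial S18, and the product of Mrps18a sits in the large subunit despite its name. Mrps18a (chromosome 17, 46247952 to 46265857) was at 1947 and 2173 in WT and at 1765 and 1775 in KO (-0.22 ± 0.08, adjusted p = 0.11). Mrps18b (chromosome 17, 36029621 to 36053314), in a row merged with Atat1 and clone names, was at 4177 and 4045 in WT and at 3361 and 3972 in KO (-0.17 ± 0.09, adjusted p = 0.218). Most of the Mrps18b difference came from KO replicate 1, with -0.31 within replicate number 1 and -0.03 within number 2. Mrps18c (chromosome 5, 101227777 to 101233488) was at 2141 and 2112 in WT and at 2153 and 2190 in KO (0.03 ± 0.07, adjusted p = 0.771), and its estimate was below 0 with upper-quartile and library-total scaling. None of the 3 passed, and differences among them were not tested.

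The only member locus that rose held Mrpl48, a large-subunit gene, together with Rab6, a small GTPase of Golgi traffic (chromosome 7, 107697630 to 107789782). It was at 8975 and 9140 in WT and at 10543 and 10586 in KO. It rose to 117% of the WT mean (0.22 ± 0.05, adjusted p = 0.0228), and 0 members with a single symbol rose. With library-total scaling this call was lost. Mrpl52, chosen after its values were seen, had the highest estimate, 0.23 ± 0.10, with 918 and 1038 in WT and 1143 and 1144 in KO, and did not pass (adjusted p = 0.149). Mrps36 is now known as a subunit of the 2-oxoglutarate dehydrogenase complex and is no ribosomal protein. It had the lowest mean of the set, 509 and 539 in WT and 556 and 584 in KO (0.12 ± 0.11, adjusted p = 0.483). Mrps33, the next lowest, was at 645 and 648 in WT and at 602 and 652 in KO, so its genotypes overlapped.

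Differences within the replicate numbers pointed the same way in most members. KO replicate 1 minus WT replicate 1 had a median of -0.16 and was below 0 in 66 members. KO replicate 2 minus WT replicate 2 had a median of -0.11 and was below 0 in 63. Both were below 0 in 60 members, both above in 7, and 9 members differed in sign. Of all 13764 tested loci, 7007 were below 0 within number 1 and 6965 within number 2. Both were below 0 in 5380 of all tested loci, both above in 5170, and 3214 differed in sign. In the 13 members that fell, the difference ran from -0.44 (Mrpl42) to -0.20 (Mrpl39) within number 1 and from -0.39 (Mrpl42) to -0.21 (Mrpl50) within number 2. The Mrpl48 locus had 0.23 and 0.21. The WT libraries had medians over members of 11.18 and 11.20 on the log2 scale and the KO libraries 11.05 and 11.06, so the genotypes did not overlap.

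**Figure D4:**
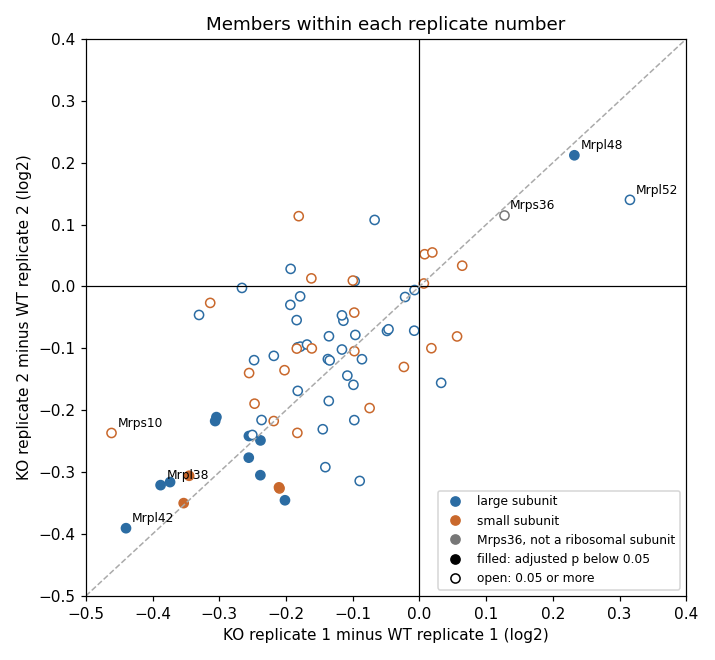
Log2 difference of KO replicate 1 and WT replicate 1 (horizontal axis) against that of KO replicate 2 and WT replicate 2 (vertical axis) for each of the 76 members, as points. 60 points lie below 0 on both axes and 7 above 0 on both. Of all 13764 tested loci, which are not drawn, 5380 were below 0 in both differences and 5170 above 0 in both.

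Levels were compared per length in the 62 members with a single symbol, as CPM per kb of coding length. The median level was 49.7, with quartiles of 35.7 and 68.5, and the highest member was 11.1 times the lowest. Large-subunit members had a median level of 52.7 (41 loci) and small-subunit members of 45.8 (20 loci). Mrpl33, the homolog of bacterial L33, had the highest level, 198 and 200 in WT and 176 and 193 in KO. Mrpl18 followed at 177 and 172 in WT and 154 and 152 in KO, and Mrps14 at 140 and 140 in WT and 116 and 107 in KO. Mrps31 had the lowest, 17.6 and 17.9 in WT and 17.5 and 16.2 in KO, below Mrpl46 with a mean of 21.3 and Mrpl47 with 23.6. Proteins that stand together in 1 particle thus differed widely in mRNA level per length. Untranslated parts of the transcripts also give reads and are not in this length. Of these 6, Mrps14 was called lower, and Mrpl33 (-0.04 ± 0.07), Mrpl18 (-0.13 ± 0.05), Mrps31 (-0.01 ± 0.09), Mrpl46 (-0.20 ± 0.09) and Mrpl47 (-0.18 ± 0.09) did not pass.

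**Figure D5:**
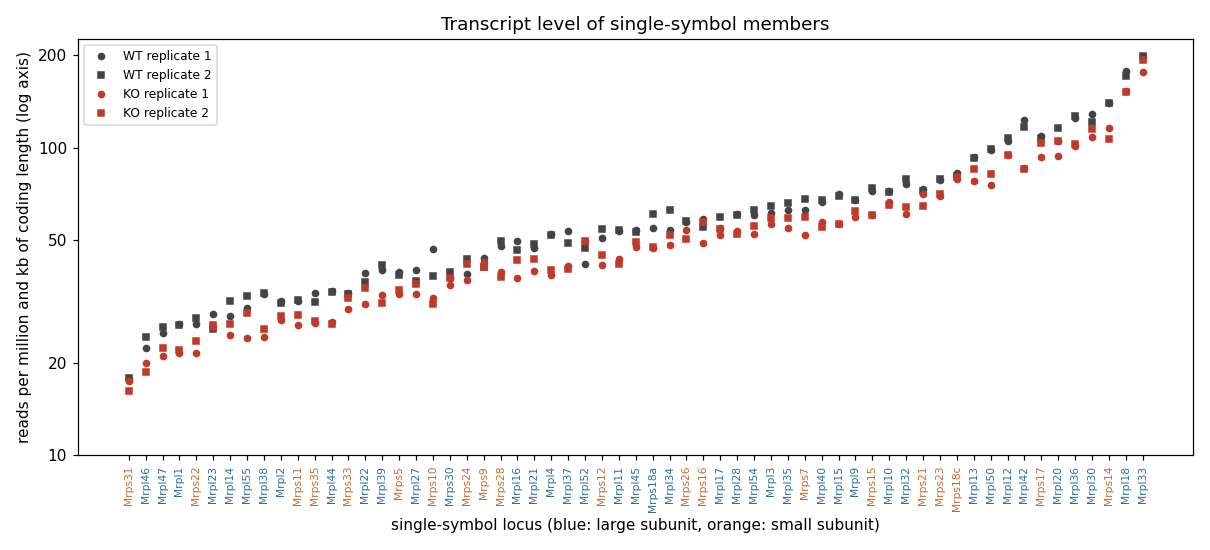
CPM per kb of coding length (vertical axis, log scale) of the 41 large-subunit and 20 small-subunit members with a single symbol, ordered along the horizontal axis with names coloured by subunit, 1 point per library (grey WT, red KO). The level runs from 17.3 for Mrps31 to 192 for Mrpl33 as means of the 4 libraries.

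The members have short coding sequences. Their median coding length was 582 bases, against 1350 in the 9263 single-name tested loci with a coding length, while the median GC content of the transcript was 50.4% against 50.7%. The 1811 other loci with a coding length within the members' interquartile range had a median fold change of -0.03, with 199 called higher and 185 lower. Across the members, fold change and coding length had a Spearman correlation of -0.23, and fold change and mean value 0.06. These are descriptions across genes that share the same 4 libraries.

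Other proteins of the mitochondrial ribosome carry no Mrp name. Of 7 such loci, 0 passed by limma, edgeR or DESeq2, 3 had an estimate below 0, and the median was 0.02, with 1 lower and 0 higher at an unadjusted p under 0.05. With upper-quartile and with library-total scaling 6 of the 7 lay below 0 and 1 was called lower, as was 1 when KO replicate 1 was left out. Ict1, a release factor built into the large subunit, was at 1280 and 1282 in WT and at 1095 and 991 in KO (-0.30 ± 0.09, adjusted p = 0.0674). The locus of Chchd1, merged with Sec24c, had an estimate of -0.11 ± 0.05 (adjusted p = 0.167). Dap3, a GTP-binding protein of the small subunit chosen after its values were seen, was at 5578 and 5977 in WT and at 6271 and 6011 in KO (0.09 ± 0.06, adjusted p = 0.325).

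The counts of the gene lists below are to be read against 11.9% of all loci called higher and 8.97% called lower. Of 25 loci for assembly of the mitochondrial ribosome, 3 rose, a share close to that of all loci, and 1 fell, with a median of -0.05. Upper-quartile and library-total scaling left 1 higher call each. Rbfa, a maturation factor of the small subunit, rose by 0.35 ± 0.07 (adjusted p = 0.0191), and Grsf1, a protein of mitochondrial RNA granules, rose by 0.28 ± 0.07 (adjusted p = 0.0429). Fastkd2, which acts in assembly of the large subunit, was at 2404 and 2431 in WT and at 1899 and 2037 in KO and fell by 0.30 ± 0.07 (adjusted p = 0.034). The Grsf1 call was lost with both of those scalings, with limma-voom, with no filter, and without either WT library or KO replicate 2, and the Rbfa call was lost without WT replicate 1. The Fastkd2 call was lost without either WT library and without KO replicate 1.

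Of 22 loci for mitochondrial translation factors, 2 fell and 0 rose by limma (1 was higher at an unadjusted p under 0.05, and edgeR and DESeq2 each called 1 higher), with a median of -0.07. The share that fell was close to that of all loci. Tufm, the elongation factor that brings aminoacyl-tRNA to the ribosome, was at 6739 and 6818 in WT and at 5307 and 5720 in KO and fell by 0.30 ± 0.06 (adjusted p = 0.0198). The locus of the initiation factor Mtif3, merged with Gtf3a, was at 4440 and 4466 in WT and at 3759 and 3818 in KO and fell by 0.23 ± 0.05 (adjusted p = 0.0309). Of 19 loci for mitochondrial aminoacyl-tRNA synthetases, 0 passed by limma, edgeR or DESeq2, with 2 lower and 1 higher at an unadjusted p under 0.05 and a median of -0.07. The lowest p-values were those of Wars2 (-0.29 ± 0.10, adjusted p = 0.0946) and Pars2 (-0.41 ± 0.15, adjusted p = 0.0963).

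Of 22 loci for mitochondrial transcription and RNA processing, 4 fell and 1 rose, with a median of -0.12. Polrmt, the mitochondrial RNA polymerase, was at 2353 and 2369 in WT and at 1921 and 1889 in KO and fell by 0.31 ± 0.07 (adjusted p = 0.0247). Fastkd3, a mitochondrial RNA-binding protein, fell by 0.46 ± 0.10 (adjusted p = 0.0257), and the locus of Mterfd3, of the mitochondrial termination factor family, fell by 0.29 ± 0.07 (adjusted p = 0.0324). Without WT replicate 1, 0 loci of the assembly, translation factor and transcription lists were called in either direction, and without WT replicate 2 the count was 1 higher and 0 lower in the assembly list and 0 in the others. The mitochondrially encoded mRNAs had 1 of 13 listed names in the table, a locus that holds mt-Nd4, with an estimate of -0.05 ± 0.05 (adjusted p = 0.548).

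Transcription regulators known at genes for mitochondrial or ribosomal proteins numbered 12, of which 2 fell and 1 rose, with a median of -0.02. Mycn was at 633 and 496 in WT and at 210 and 224 in KO and fell by 1.36 ± 0.17 (adjusted p = 0.00553). Myc was at 12714 and 12854 in WT and at 9413 and 10164 in KO and fell by 0.39 ± 0.05 (adjusted p = 0.0079). Without either WT library the Myc call was lost and that of Mycn was not. Tcfe3 rose by 0.26 ± 0.07 (adjusted p = 0.0456), a call lost with edgeR, limma-voom, no filter, upper-quartile and library-total scaling, and without either WT library or KO replicate 2. The genes of the factors whose cores were searched above did not pass by limma: Nrf1 had 0.04 ± 0.06, Yy1 0.15 ± 0.04 and the locus of Gabpa, merged with Atp5j, -0.06 ± 0.05. At an unadjusted p under 0.05, 2 of the 12 regulators were higher and 2 lower by limma, against 19.5% and 18.3% of all loci. DESeq2 called 2 higher and 2 lower, against 13.9% and 10.9%, and edgeR called 0 higher and 2 lower, against 11.8% and 8.86%. Any link between these regulators and the members was not tested.

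Other related groups give the setting of the shift. Of 83 loci for cytosolic ribosomal proteins, 17 rose and 1 fell, 12 had an estimate below 0, and the median was 0.11. Rps28 (0.53 ± 0.06) and Rps29 (0.96 ± 0.09) were among those that rose. Of 76 nuclear loci for oxidative phosphorylation, 3 rose and 4 fell, 51 had an estimate below 0, and the median was -0.06. The share that fell was below that of all loci. Cox6b2 rose by 0.72 ± 0.13, Ndufv3 by 0.48 ± 0.07 and the locus of Ndufb6 by 0.30 ± 0.05. Those that fell included Ndufa4 of the respiratory chain (-0.28 ± 0.06, adjusted p = 0.0218), Uqcrb of complex III (-0.27 ± 0.07, adjusted p = 0.042) and Sdha of complex II (-0.20 ± 0.04, adjusted p = 0.0243). The differences between these groups and the members were not tested.

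Cell type markers moved with the genotype, and their part in the lower member transcripts was not tested. The Lin- gate is meant to remove mature cells, but genes of these lists, such as the erythroid one, need not mark mature cells only. Of 14 mature neutrophil marker loci, 13 rose, with a median of 0.94, and they held 2.02% and 2.24% of reads in WT and 3.80% and 3.54% in KO. Padi4, Camp and Mmp9 had the largest rises (1.13 ± 0.17, 1.11 ± 0.13 and 1.08 ± 0.16). Of 14 erythroid loci, 7 rose (median 0.44), led by Tfrc at 1.09 ± 0.06, and 3 passed without WT replicate 1. The erythroid loci held 0.213% and 0.241% of reads in WT and 0.306% and 0.365% in KO. Of 16 B, T and NK cell loci, 5 fell (median -0.57), and the loci held 0.112% and 0.109% of reads in WT against 0.0829% and 0.0604% in KO. Cd4 fell by 1.54 ± 0.23, Thy1 fell by 1.04 ± 0.23 and Cd79a fell by 0.86 ± 0.19. The count of this list was 0 without WT replicate 1, 1 without WT replicate 2 and 10 without KO replicate 1. Of 12 macrophage and dendritic cell loci, 4 fell and 1 rose (median -0.23), among them C1qa (-0.98 ± 0.26) and C1qb (-0.97 ± 0.20). Flt3 and Csf1r in this list are also among the progenitor genes below, where the fall of Flt3 is counted again. Without either WT library 0 of this list were called lower, and edgeR called 2. Emr1 rose, from 681 and 628 in WT to 1198 and 1436 in KO. They held 0.0379% and 0.0397% of reads in WT and 0.0344% and 0.0389% in KO. No marker list had a locus at 0 in every library.

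A list of 8 genes of progenitor cells held Kit, which the sort used, and Cd34, Myb, Gata2, Mpo, Cd33, Flt3 and Csf1r, which it did not. Of these 8, 3 fell and 1 rose, with a median of -0.30, and 6 were called lower with upper-quartile or library-total scaling and 1 without either WT library. They held 1.03% and 0.940% of reads in WT and 0.834% and 0.723% in KO. Kit did not pass: it was at 17739 and 16149 in WT and at 18483 and 18889 in KO (0.14 ± 0.06, adjusted p = 0.131). The locus of Cd34 fell by 0.83 ± 0.05, Flt3 fell by 0.61 ± 0.16 (a call lost with edgeR, DESeq2, limma-voom, no filter and without either WT library) and Cd33 rose by 1.19 ± 0.07. Of 17 genes of dividing cells, 0 passed by limma and 1 was lower by edgeR and by DESeq2, with 2 lower and 0 higher at an unadjusted p under 0.05 in limma and a median of -0.05. The proliferation marker Mki67 was at 0.11 ± 0.05 (adjusted p = 0.206), and Plk1 (merged with Dctn5, -0.16 ± 0.05) and Aurka (-0.17 ± 0.06) had the lowest p-values of that list.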

How the data were processed

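RNA of 4 libraries of Lin-Kit+ cells was sequenced. Per the submitters' processing notes, the aligner was STAR 2.3.1t on mm9. Not given in the sources used here: counter, annotation, strand handling, treatment of reads with several matches, scaling tool. The values deposited by the authors are a signal: each library's read counts times 1 constant, judging by the values. All values (100%) were whole multiples of 1 read within 0.001 of a read, and 1 read was worth 1.30 and 1.22 in WT and 0.758 and 0.825 in KO. Where 0 reads were seen, 3 could be missed: 3.89, 3.66, 2.27 and 2.48 on the deposited scale, same order, for counting error only.

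Genotypes were compared in R 4.3.3 by limma-trend (limma 3.58.1) on log2(value + 1), genotype as the only term, on loci at 10 or more in 2 libraries. The edgeR 4.0.16 quasi-likelihood test on the recovered reads called 2839 loci, 1619 higher and 1220 lower, against 2875. DESeq2 1.42.0, limma-voom, TMM, upper-quartile and library-total scaling, pseudocounts of 0.5 and 10, other filters, a replicate block and leaving out each library were alternatives. Rows that join 2 loci were left out (0.0619% to 0.0676% of reads). Coding length is the longest of GENCODE vM21 basic, and GC is that of its transcript; promoter sequences are from RefSeq.

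Members and lists were chosen with earlier results of these data known, so no list is independent support. Named genes are Asxl1, the called members, the 3 uncalled members with the largest estimate by size, the 3 highest and 3 lowest per coding kb, the 2 lowest means, the Mrps18 family, and up to 3 called genes of each list or the 2 with the smallest p where none was called. Genes outside this rule are identified in the text or serve as context (Kit, Mki67, Nrf1, Yy1, Gabpa and the cytosolic ribosomal and oxidative phosphorylation genes).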

Additional observations from a re-analysis of the deposited data

Results flagged for a closer look

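Rows that join a pair of neighbouring loci were outside the comparison, and 57 of 4893 such rows held a member. They carried at most 53 reads in a row and library. The row joining Mrpl18 to the neighbouring locus of Tcp1 and Acat3 had a mean of 0.633 CPM in KO, above 0.426 in WT. It held 20 and 21 reads in WT and 48 and 53 in KO. It was picked as the 1 row with both KO libraries above both WT libraries and at least 10 reads in each KO library. No row was picked for the opposite order. The row joining Ighmbp2 to Mrpl21 had that order, with 0.601 and 0.563 CPM in WT and 0.335 and 0.404 in KO. These are values of few reads, and their differences were not tested.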

How the results depend on the processing

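Of the 76 members, 13 were lower and 1 higher, and their median was -0.13. The lower count was 7 without a filter on low values, 20 with upper-quartile scaling and 22 with library-total scaling, where the median was -0.18 and -0.20. The higher count was 0 with library-total scaling and 0 among single-name loci only. Leaving out 1 library gave 0 to 10 lower members, 0 to 1 higher members, a median of -0.16 to -0.10, and 869 to 3233 loci called in all, against 2875. Leaving out either WT library gave 0 lower members, leaving out KO replicate 1 gave 10 and KO replicate 2 gave 9; the cause was not tested. In these fits the lone library is assumed to vary like the other genotype. The spread was thus that of the KO pair where a WT library was left out, and that of the WT pair where a KO library was.

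Pseudocounts of 0.5 and 10, TMM scaling and edgeR gave counts of 13 lower and 1 higher (with edgeR not the same members, as Mrpl37 was not called), DESeq2 gave 16 and 1, limma-voom 10 and 1, and a filter at 50 gave 15 and 1. Of all called loci 57% were higher (1640 against 1235), with upper-quartile scaling 1408 against 1901 and with library-total scaling 1328 against 2058. Over 15 alternatives Mrpl42, Mrpl38, Mrpl4, Mrps2 and Mrpl15 kept their call in 13, while Mrpl36 kept it in 9. No called estimate changed sign, while the estimates of Mrps18c, Mrps31, Mrpl33, Mrps33 and the mt-Nd4 locus, which were not called, crossed 0 in some settings.

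The labels do not say that a replicate number marks a pair, and there are only 2 numbers. Deviations of same-numbered libraries had a correlation of 0.25 over tested loci and 0.11 over autosomal ones. With the replicate block 8 B, T and NK cell loci were lower (5 without it), 10 erythroid loci higher (7 without it) and 5 progenitor genes lower (3 without it). Of the members 15 were lower and 1 higher, and the median was -0.13. The block also raised the background, with 3439 loci called in all. Of all tested loci 11.1% were then lower and 13.8% higher, against 8.97% and 11.9% without the block.

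With 2 libraries per genotype, differences of the size of most members could not be called, and a member that did not pass is not shown to be unchanged.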
